A study of Mus musculus with 6 samples.

Results

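Expression of fibronectin and of secreted proteins of the matricellular class was examined in primary colonic tumor cells of the mouse with and without an inhibitor of the Group I p21-activated kinases (Paks). The genes were 10 named members, Fn1, Tnc, Sparc, Thbs1, Thbs2, Thbs3, Postn, Tgfbi, Vtn and Ecm1, chosen by name and matched by symbol, of 21966 genes in the deposited table. The members, and the lists of other genes given below, were chosen with earlier results of these data known. PID+ cells came from tumors of CDX2P-NLS-Cre;APCΔ/+;ROSA26-PID mice and express PID, a peptide from the autoinhibitory domain of Pak1. PID- cells came from CDX2P-NLS-Cre;APCΔ/+ mice. Both groups thus carry the Apc deletion. It is made by a Cre under the Cdx2 promoter, which acts mostly in epithelial cells toward the lower end of the gut. The labels name 3 mice per group, numbered 4, 7 and 26 for PID+ and 1, 2 and 3 for PID-. The study numbers its PID+ lines in the same way but its PID- lines otherwise, so which lines the PID- values come from is not given in the sources used here. They call the PID- samples normal, whereas the series describes both groups as tumor cells, and the methods speak of replicated sequencing runs where the labels name mice. The age of the animals and the passage of the cells are not given in the labels. The table lists no PID transgene on which the assignment of the groups could be checked.

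Values are FPKM, fragments normalized to transcript length and sequencing depth, which allow levels of different genes to be compared per length. The authors merged the 3 sets of reads of a group, so each gene has 1 pooled FPKM per group, with the interval that CuffDiff gave it. No spread between mice or lines can be calculated, no test was possible, and no difference given here has a replicate check. The intervals cover only the error model of CuffDiff and were wide, and among genes that averaged 10 FPKM or more the upper bound lay a median of 75.1% above the FPKM in PID+ cells and 73.9% above it in PID- cells. Changes are on the scale log2(FPKM + 1), PID+ minus PID-, which understates the change of low genes. A gene was called where it differed at least 3-fold on that scale.

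Fibronectin is a large glycoprotein that cells assemble into fibrils by pulling on it through integrins, and it serves as a scaffold for other matrix proteins. Matricellular proteins are secreted into the matrix but do little structural work. They bind integrins, proteases and growth factors and change how a cell attaches, spreads and responds to TGF-β. Several of them are low in resting adult epithelium and increase in wound repair, in tumor stroma and in cells that take on mesenchymal features. In the intestine most are made by stromal cells, although cultured carcinoma cells can make them too.

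Sparc, Tnc and Tgfbi were called lower in PID+ cells and no member was called higher, that is 3 of 10 lower and 0 of 10 higher. Over all 21959 genes that CuffDiff passed in both groups, 377 were called lower (1.72%) and 229 higher (1.04%). A gene must reach an FPKM of 2 in at least 1 group to be called at all. Thbs2, Thbs3 and Vtn did not reach it, which left 7 members that could be called, and of the 11035 genes that reached it 3.42% were called lower and 2.08% higher. The median change of the 10 members was -0.84, beside 0 over all genes. With the groups scaled to equal Gapdh FPKM it was -1.20, beside -0.079 over all genes. Among members that averaged at least 1 FPKM it was -1.37, and -0.46 among those that averaged at least 5 FPKM. Tgfbi, Postn and Thbs2 passed the filter at 1 FPKM through PID- cells only, and Tnc that at 5 FPKM. The filters themselves thus shape these 2 medians. The deposited intervals of PID+ and PID- cells overlapped for each of the 10 members. Intervals lay apart, lower in PID+ cells, for 0.542% of all genes, and higher for 0.187%.

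**Figure D1:**
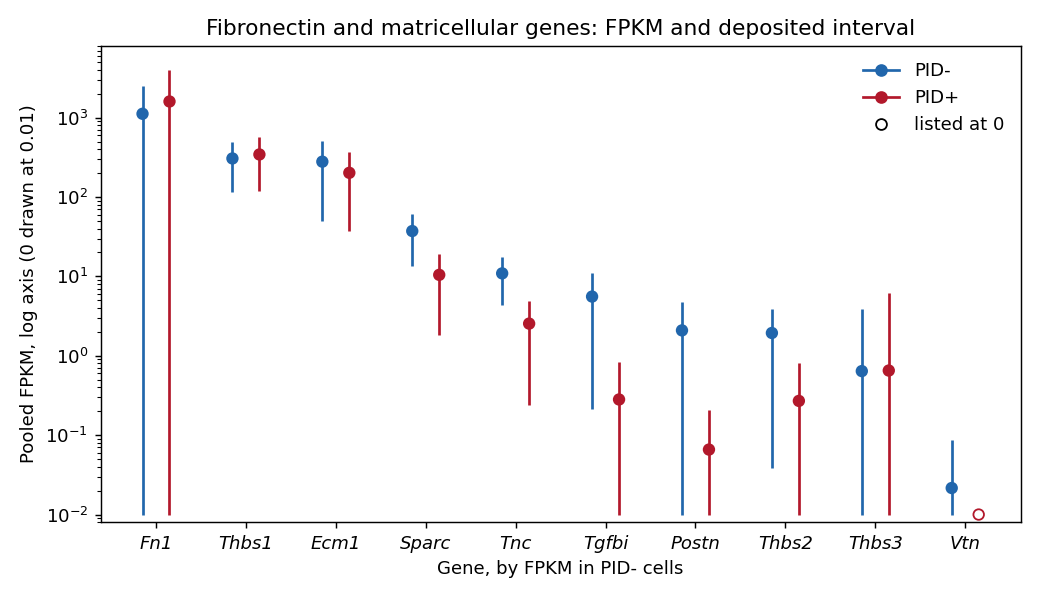
Pooled FPKM of the 10 genes on a log axis in PID- cells (blue) and PID+ cells (red), with lines for the interval deposited with each value and a bound or value of 0 drawn at 0.01. Fn1, Thbs1 and Ecm1 lie above 100 FPKM in both groups, Sparc, Tnc and Tgfbi are lower in PID+ cells, and the intervals of the groups overlap for every gene shown.

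Fn1, which encodes fibronectin, was measured at 1597 FPKM in PID+ cells (interval 0 to 3944) and at 1118 FPKM in PID- cells (interval 0 to 2507). It was the member with the highest level in both groups, at rank 28 of all genes in PID+ cells and rank 50 in PID- cells. It made up 74.1% of the summed FPKM of the 10 members in PID+ cells and 63.5% in PID- cells. The change of Fn1 was 0.51 and turned to -0.11 when the groups were scaled to equal Gapdh FPKM, so its direction depended on the scaling. Both intervals of Fn1 started at 0 although an estimated 894351 and 857590 reads lay behind the values. Counting error was thus a small part of them.

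Gapdh, a glycolytic enzyme often used as a reference gene, was measured at 2570 FPKM in PID+ cells and 1666 FPKM in PID- cells, a ratio of 1.54. Scaling to equal Gapdh therefore moved the median change of the 9341 genes that averaged 5 FPKM or more to -0.58, from -0.0012 as deposited. It also moved the calls over all genes from 377 lower and 229 higher to 662 lower and 76 higher. Fn1 lay above the median of these genes at both scalings.

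The study measured Fn1 by quantitative PCR too, and the stretch that its primers amplify is printed here to show which transcripts that assay reads. Both primers matched 7 of the 9 protein coding transcripts of Fn1 in Gencode M21 without a mismatch, and no transcript of another gene. The product of 124 bases lies in coding sequence of exon 9 of 45, at chr1:71641185-71641308 on the minus strand of GRCm38. In the sequence the capitals mark the primer sites.
Fn1 amplicon: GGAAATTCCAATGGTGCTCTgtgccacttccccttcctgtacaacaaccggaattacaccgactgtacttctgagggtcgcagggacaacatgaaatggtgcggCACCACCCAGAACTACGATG

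Thbs1 encodes thrombospondin-1, which binds Cd36 and Cd47 and can activate latent TGF-β. Its FPKM was 344 in PID+ cells (interval 119 to 568) and 306 in PID- cells (interval 114 to 498). The change of 0.17 turned to -0.46 with equal Gapdh FPKM. Thbs1 was thus an abundant transcript in both groups, at rank 215 in PID+ cells and 223 in PID- cells, with no called difference.

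Thbs2 encodes thrombospondin-2, which shares the trimeric build of thrombospondin-1 but does not activate latent TGF-β. Its FPKM was 0.270 in PID+ cells (interval 0 to 0.812) and 1.94 in PID- cells (interval 0.0390 to 3.84). The FPKM were 7.17-fold apart without the added 1, while the change on the log2(FPKM + 1) scale was -1.21, which is below the threshold of 1.58 in size. About 106 and 1043 reads lay behind these values.

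Thbs3, a thrombospondin of the pentameric group, was measured at 0.652 FPKM in PID+ cells (interval 0 to 6.21) and at 0.641 FPKM in PID- cells (interval 0 to 3.89). Its change of 0.0093 turned to -0.031 with equal total FPKM, to -0.21 with equal Gapdh FPKM and to -0.25 with the median of chromosome 3 subtracted. The library kit does not mark the strand, and 11658 bases of Thbs3 are overlapped by Mtx1, a protein coding gene on the opposite strand, so reads of the pair cannot be told apart where their exons meet. Of the 3 thrombospondins, Thbs1 was the highest in both groups, and the lowest was Thbs2 in PID+ cells and Thbs3 in PID- cells.

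Sparc encodes osteonectin, a collagen-binding glycoprotein that loosens cell adhesion. Its FPKM was 10.5 in PID+ cells (interval 1.83 to 19.1) and 37.3 in PID- cells (interval 13.5 to 61.0). Sparc fell by 1.74 on the log2 scale, and stayed past 3-fold under each scaling tried, between -2.30 and -1.71. In a bulk sample, fewer cells that express a gene and less RNA per cell cannot be told apart, which applies to each difference given here.

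Tnc encodes tenascin-C, a hexameric protein that interferes with attachment to fibronectin. Its FPKM was 2.54 in PID+ cells (interval 0.239 to 4.85) and 10.9 in PID- cells (interval 4.32 to 17.5). Tnc fell by 1.75 on the log2 scale. The median change of the 560 genes of chromosome 4, where Tnc lies, that averaged 5 FPKM or more was -0.31, and with that median subtracted the change of Tnc was -1.44 and no longer past 3-fold. A transcript of another gene, 8030451A03Rik, runs on the opposite strand over 67162 bases of Tnc.

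Tgfbi encodes a secreted protein of the fasciclin family that TGF-β induces and that binds collagens and integrins. Its FPKM was 0.282 in PID+ cells (interval 0 to 0.823) and 5.57 in PID- cells (interval 0.216 to 10.9). Tgfbi fell by 2.36 on the log2 scale, the greatest change among the 10 members on this scale, and by a factor of 19.8 without the added 1. About 49 reads in PID+ cells and 1327 in PID- cells lay behind these values. The change stayed between -2.47 and -2.16 under the scalings tried.

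Postn encodes periostin, the other fasciclin protein among the members, which aids the crosslinking of collagen and binds αv integrins. Its FPKM was 0.0658 in PID+ cells (interval 0 to 0.210) and 2.09 in PID- cells (interval 0 to 4.72). The change of -1.53 lay just short of the threshold of 1.58. It was -3.72 with 0.1 in place of 1 added to the FPKM and -1.79 with the median of chromosome 3 subtracted, both past 3-fold. Without an added value the FPKM were 31.7-fold apart, on about 14 reads in PID+ cells and 595 in PID- cells.

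Ecm1 encodes extracellular matrix protein 1, a glycoprotein of skin and other epithelia that binds matrix proteins. Its FPKM was 202 in PID+ cells (interval 37.6 to 366) and 279 in PID- cells (interval 49.2 to 508). The change of -0.46 was below the threshold, and ranged from -1.09 to -0.44 over the scalings. Ecm1 was the third of the members above 100 FPKM in both groups.

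Vtn encodes vitronectin, a plasma protein made mainly by hepatocytes that binds αv integrins. It was listed at 0 in PID+ cells and at 0.0216 in PID- cells (interval 0 to 0.0859), which is about 3 reads. With both groups at or under a floor of 3 reads no fold is given. Of 7 hepatocyte markers, 0 reached an FPKM of 1 in either group, their sum was 0.355 in PID+ cells and 0.688 in PID- cells, and Trf was the most abundant. Ttr, Serpina1a and Fgb were listed at 0 in both groups.

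**Figure D2:**
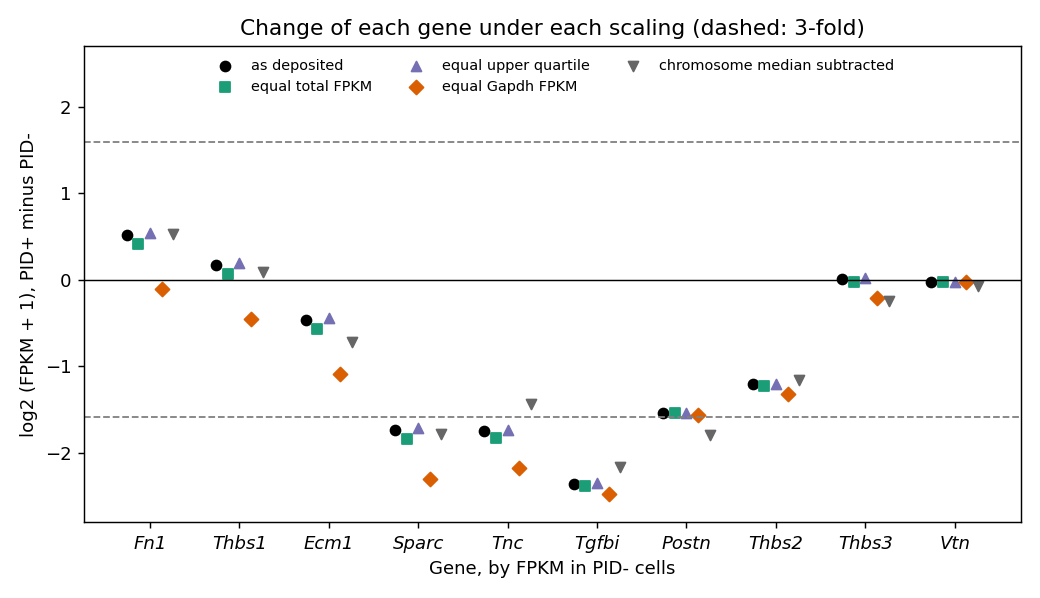
Change of each of the 10 genes as log2(FPKM + 1), PID+ minus PID-, as deposited, with the groups scaled to equal total, upper quartile or Gapdh FPKM, and with the median of the gene's chromosome subtracted, with dashed lines at 3-fold. Sparc and Tgfbi lie below the lower dashed line under every setting shown. After subtraction of the chromosome's median, Tnc lies above that line (-1.44) and Postn below it (-1.79). Fn1 and Thbs1 cross 0 with equal Gapdh FPKM, and Thbs3 crosses 0 under 3 settings.

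The members that were called lower lie on chromosomes 11, 4 and 13, and Postn lies on chromosome 3. Promoter windows of RefSeq (GRCm38.p6) were at hand for 8 of the 10 members, in 10 windows, and the 250 bases before each start were searched on both strands for 6 short motifs that do not contain one another. TATAAA was in windows of 5 of these members and in 12.4% of all 32851 windows. GGGCGG was in windows of 4 members and in 32.7% of all windows. Tnc has a pair of overlapping windows that hold the same match of each, counted here once. CCAAT was in 2 windows (33.8% of all). TGANTCA, the AP-1 motif, was in the window of Ecm1 only (6.75% of all), and CAGGTG (17.2% of all) and GGAATG (12.6% of all) were in that of Vtn only. These are matches of letters and no binding was measured.

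Stretches before the starts of Tgfbi and Tnc are printed because both were called lower, with that of Postn, which lay at the threshold, beside them. They come from chr13:56609336-56609522 on the plus strand for Tgfbi, chr4:64047016-64047215 on the minus strand for Tnc and chr3:54360907-54361106 on the plus strand for Postn (GRCm38.p6). All bases shown lie outside the exons in Gencode M21, and capitals mark GGGCGG and TATAAA. Tgfbi held GGGCGG, Tnc held both motifs and Postn held TATAAA. The stretch before another start of Postn, chr3:54359067-54359266, held none of the motifs. For Sparc, the stretch outside exons nearest the start was 7 bases long, so none is printed.
Tgfbi: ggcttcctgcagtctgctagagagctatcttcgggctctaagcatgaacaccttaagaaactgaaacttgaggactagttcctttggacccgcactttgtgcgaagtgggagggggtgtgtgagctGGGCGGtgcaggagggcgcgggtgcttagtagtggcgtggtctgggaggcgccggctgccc
Tnc: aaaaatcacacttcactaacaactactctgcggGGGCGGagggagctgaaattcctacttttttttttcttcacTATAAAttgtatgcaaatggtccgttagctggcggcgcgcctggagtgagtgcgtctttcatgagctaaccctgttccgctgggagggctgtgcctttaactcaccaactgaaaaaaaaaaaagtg
Postn: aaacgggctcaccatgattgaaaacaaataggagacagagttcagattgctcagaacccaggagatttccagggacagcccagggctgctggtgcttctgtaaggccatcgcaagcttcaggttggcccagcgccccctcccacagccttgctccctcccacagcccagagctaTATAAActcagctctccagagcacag

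Other matricellular genes, 22 in all, comprise further tenascins and thrombospondins, relatives of Sparc, the CCN proteins, osteopontin, Ecm2, Igfbp7 and Mfge8. In PID+ cells 6 of 22 were called lower and 1 higher, beside 1.72% and 1.04% of all genes, and only 10 of the 22 reached the FPKM of 2 that a call needs. Intervals lay apart, lower in PID+ cells, for 4 of the 22, beside 0.542% of all genes. The median change of the 22 was -0.17, with many genes near 0 in both groups. It was -0.74 with a pseudocount of 0.1, -2.11 among those that averaged at least 1 FPKM and -0.80 among the 6 that averaged at least 5 FPKM, where the median of the 5 members at that level was -0.46. Smoc2, Ccn3, Ccn4 and Ccn5 passed the filter at 1 FPKM through PID- cells only, and Fstl1 that at 5 FPKM. The medians under these filters are thus shaped by the filters themselves. Spp1, which encodes osteopontin, an integrin and Cd44 ligand, was at 63.8 FPKM in PID+ cells and 782 FPKM in PID- cells and fell by 3.59 on the log2 scale. Smoc2, a relative of Sparc, fell by 2.59 (0.0276 in PID+ cells against 5.18 in PID- cells). Fstl1, another relative, fell by 2.44 (4.0 and 26.2).

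Of the CCN family, whose members bind integrins and growth factors, Ccn3 (0.0599 in PID+ cells and 2.69 in PID- cells), Ccn4 (0.398 and 6.45) and Ccn5 (0.133 and 6.97) fell. Ccn1, a ligand of αv and α6 integrins, rose from 51.2 in PID- cells to 165 in PID+ cells, a change of 1.67 that fell short of 3-fold with equal total FPKM (1.57), with equal Gapdh FPKM (1.05) and with its chromosome's median subtracted (1.42). Ccn2, also known as connective tissue growth factor, was the most abundant of the list at 1024 in PID+ cells and 994 in PID- cells. Members of 1 family thus lay on both sides of the threshold.

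Of 21 receptors of these proteins, 1 was called lower and 0 higher, beside 1.72% and 1.04% of all genes, and 14 of them could be called. Their median change was 0.0050, and -0.20 with equal Gapdh FPKM. Among receptors that averaged at least 1 FPKM it was 0.24, and 0.22 among those that averaged at least 5 FPKM. Itgb5, the β5 chain that pairs with αv to bind vitronectin, was at 2.23 FPKM in PID+ cells and 30.6 FPKM in PID- cells and fell by 3.29 on the log2 scale, with intervals that lay apart. Itgb1, the β1 chain of the main fibronectin receptor, was the most abundant receptor by mean FPKM, at 490 in PID+ cells and 703 in PID- cells. Its partner for fibronectin, Itga5, was at 15.9 and 35.0. Itga3, a partner of Itgb1 for laminins, was at 464 and 208, a change of 1.15 (0.53 with equal Gapdh FPKM) that was below the threshold. Itga6, another α chain of the list, was at 196 and 170, a change of 0.21 (-0.41 with equal Gapdh FPKM).

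The αv chain Itgav was at 122 in PID+ cells and 80.4 in PID- cells, and its partners Itgb6, an epithelial chain, at 47.3 and 31.5 and Itgb3 at 0.640 and 0.280. Syndecan-4 (Sdc4), a co-receptor for fibronectin, was at 111 and 90.3. The thrombospondin receptors differed in level from each other, with Cd36 at 0.0288 and 0.0357 and Cd47 at 27.7 and 58.5. Plaur, the urokinase receptor, which also binds vitronectin, was at 71.2 and 40.4.

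Among 17 genes of matrix crosslinking, processing and integrin-linked adaptors, 3 were called lower and 0 higher, beside 1.72% and 1.04% of all genes, with a median change of -0.17 (-0.79 with equal Gapdh FPKM). Of the 17 genes, 16 could be called. Lox, an oxidase that crosslinks collagen and elastin, was at 0.220 in PID+ cells and 10.4 in PID- cells, and fell by 3.23 on the log2 scale with intervals apart. Tgm2, a transglutaminase that crosslinks fibronectin, fell by 1.85 (14.6 in PID+ cells and 55.2 in PID- cells). Tns1, a tensin of fibrillar adhesions, fell by 2.48 (0.378 and 6.71). Parva, an adaptor that binds integrin-linked kinase, was the most abundant by mean FPKM, at 94.4 and 89.9.

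TGF-β induces several of the members, so 17 genes of its ligands, receptors, binding proteins, mediators and the plasminogen activators were examined. Of these, 2 were called lower and 0 higher, beside 1.72% and 1.04% of all genes, and all 17 could be called. Their median change was -0.052, and it was -0.65 with equal Gapdh FPKM, -0.15 with equal total FPKM and 0.091 with chromosome medians subtracted. Tgfb2, a TGF-β ligand, was at 0.492 in PID+ cells and 19.9 in PID- cells and fell by 3.81 on the log2 scale. Tgfbr3, a co-receptor that presents that ligand, fell by 3.29 (0.189 and 10.7). Intervals lay apart for both genes, beside 0.542% of all genes with intervals apart and lower in PID+ cells. Tgfb1 was at 18.7 and 41.7, and Plat, tissue plasminogen activator, was the most abundant of the list by mean FPKM, at 126 and 48.1.

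**Figure D3:**
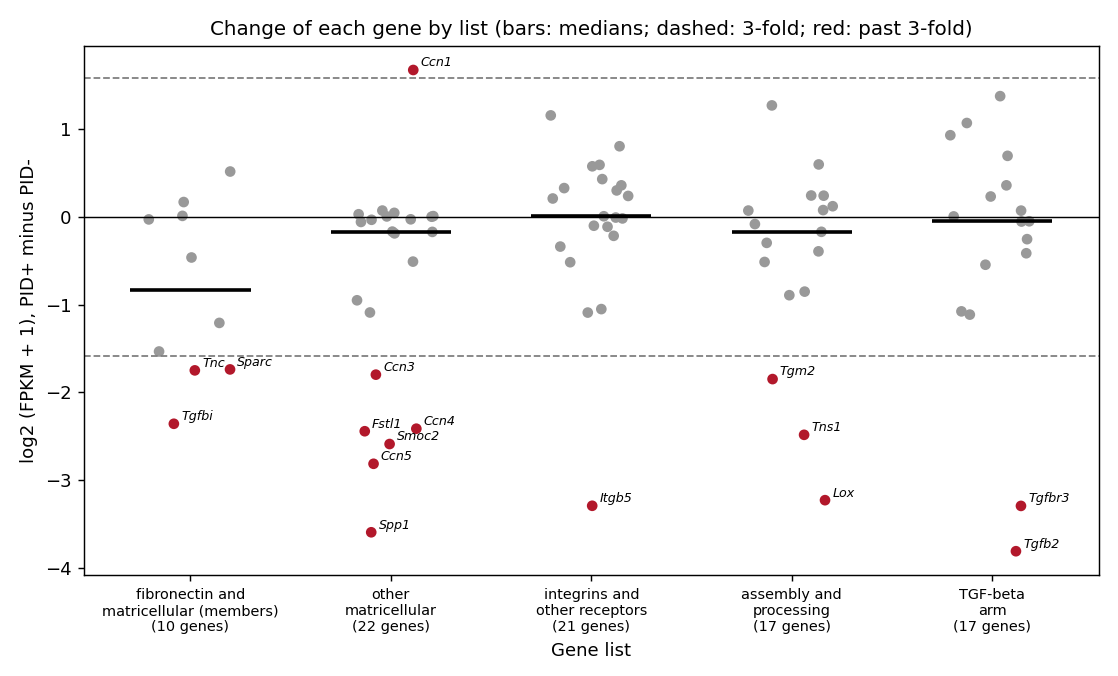
Change of each gene, as log2(FPKM + 1), PID+ minus PID-, in the 10 members and the 4 other lists, with a bar at each list's median, dashed lines at 3-fold and called genes in red. The members' median is -0.84 and the other medians lie between -0.17 and 0.0050, which include genes near 0 in both groups. Among genes that average at least 5 FPKM the members' median is -0.46 and that of the other matricellular genes -0.80. Tnc and Fstl1 reach that mean only through PID- cells. Ccn1 is the only called gene above 0, a call lost with equal total FPKM.

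Of 16 markers of colon epithelium, 11 were at an FPKM of at least 1 in PID+ cells and 13 in PID- cells. General epithelial markers such as keratins, claudins, Epcam and Cdh1 (192 and 88.0) were high in both groups, while several markers of differentiated intestine were low or listed at 0. Summed, they came to 9785 FPKM in PID+ cells against 5390 FPKM in PID- cells, with the keratins Krt18 (2843) and Krt19 (2073) the most abundant in each. Of the 16, 13 could be called, and 3 were called lower in PID+ cells and 2 higher, beside 1.72% and 1.04% of all genes. Epcam, an epithelial adhesion molecule, rose by 1.68 on the log2 scale and the claudin Cldn7 by 1.77, calls lost with equal Gapdh FPKM (1.06 and 1.15) and, for Epcam by a small margin, with equal total FPKM. Cdh17, an intestinal cadherin, was at 1.67 in PID+ cells and 25.9 in PID- cells and was called lower with intervals apart, and Krt20, a keratin of differentiated epithelium, was at 158 and 73.5. Cdx1 was listed at 0 in both groups, Vil1 was at 0.175 and 0.0614, Muc2 at 0.687 and 0.603, above its own deposited interval in each group, and Lgals4 at 1.86 and 3.43. Car1 (0 in PID+ cells and 5.55 in PID- cells) and Cdx2, an intestinal identity factor (0.542 and 8.04), were the other markers called lower.

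Some fibroblast markers, 4 collagen genes and Dcn, were called lower in PID+ cells like Sparc, Tnc and Tgfbi, and the other 7 were not called. Of 12 such markers, 1 in PID+ cells and 5 in PID- cells reached an FPKM of 1, and their summed FPKM was 3.11 and 37.0. Of the 12, 5 were called lower, which are all that could be called, beside 1.72% of all genes and 3.42% of those that could be called. Among these 5, Col1a2, Col3a1, Col6a3 and Dcn reached the needed FPKM of 2 in PID- cells only. They could thus be called lower but not higher. Collagen genes led both sums, Col1a1 at 2.32 in PID+ cells and Col1a2 at 11.9 in PID- cells. Among defining markers, Dcn was called lower, listed at 0 in PID+ cells and at 2.39 in PID- cells (about 354 reads). Thy1 and Pi16 were at 0 in PID+ cells and at 0.377 and 0.0116 in PID- cells, and Lum and Dpt were listed at 0 in both groups. Pdgfra was at 0.188 in PID+ cells and 0.243 in PID- cells, Pdgfrb at 0.0896 and 0.987 and Fap at 0.0736 and 0.0918. Tumor cells with mesenchymal features express some of these collagens too. Vim, which encodes vimentin, the intermediate filament of mesenchymal cells, was at 19.1 in PID+ cells and 997 in PID- cells, and was named after its values were seen. The part of cells or features that these markers stand for in the lower Sparc, Tnc and Tgfbi was not tested.

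Smooth muscle and pericyte markers reached an FPKM of 1 in 2 of 8 cases in PID+ cells and 3 in PID- cells (sums of 6.09 and 16.1), led by Acta2 at 4.39 and 9.76, and Actg2 (0.280 and 3.06) was called lower. Endothelial markers reached it in 1 of 8 in each group (sums of 4.40 and 1.66), namely Kdr at 3.33 and 1.01. Of 8 leukocyte and macrophage markers, 2 reached it in each group (sums of 51.0 and 45.7), led by Cd14 at 29.1 and 28.6, while Ptprc was at 0.0264 and 0.00811 and C1qa at 0 in both. Platelets store fibronectin and thrombospondin-1 as protein. Of 8 platelet and megakaryocyte markers, 2 reached an FPKM of 1 in each group, and Ppbp, a chemokine that is not confined to platelets, made up nearly all of the sums (2321 of 2323 in PID+ cells and 231 of 234 in PID- cells), with Gp6 listed at 0 in both. Ppbp rose by 3.32 on the log2 scale, with intervals apart.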

How the data were processed

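RNA-seq of 6 samples was used, 3 labelled PID+ and 3 labelled PID-. The authors prepared poly(A)-selected libraries without strand marking, trimmed the reads with CutAdapt, aligned them to GRCm38.p3 with TopHat (Bowtie2), guided by protein coding gene models, pooled the reads of each condition and ran CuffDiff. The deposited FPKM, with CuffDiff's interval bounds, are its output under compatible hits normalization. The annotation release and library scaling are not given in the sources used here. The table's treated condition was read as PID+ and its untreated condition as PID-, by the treatments in the labels.

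Of 21966 genes, 7 without an OK status were left out, and 232 identifiers had no symbol. Changes were log2((FPKM in PID+ + 1)/(FPKM in PID- + 1)), called at 3-fold. Genes whose deposited intervals lay apart were counted separately. The members and gene lists were chosen with earlier results of these data known. Named genes were the 10 members, each called gene of a list, its most abundant gene, 14 listed receptors, ligands and enzymes, markers that were most abundant or near 0, and Gapdh. Itga3, Itga6, Krt20, Cdh1, Pdgfrb, Fap and Vim were named after their values were seen. Pooled FPKM allowed no replicated test. The planned comparison of protein sequences is not analysed here, and 1 gene planned for the TGF-β list is not reported here.

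Reads were estimated from genes with 1 transcript: FPKM times the length less 190 bases came out within 0.1 of a whole number of reads for 89.5% of 817 genes in PID+ cells and 91.1% of 761 in PID- cells. The value of a read differed 1.37-fold. A whole fraction of that value would give whole numbers too, so the largest value that fitted was taken. Reads of members assume the longest coding transcript and are approximate, and the depth of each sample is unknown. Calculations were tested on simulated data. Alternatives were a pseudocount of 0.1, equal total, upper quartile or Gapdh FPKM, chromosome medians subtracted, a mean FPKM of at least 1 or 5, 2-fold, and intervals apart. Positions came from Gencode M21. Python 3.11.15, numpy 2.4.6, pandas 2.3.3, Biopython 1.88 and matplotlib 3.10.9 were used.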

Additional observations from a re-analysis of the deposited data

How the results depend on the processing

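The number of members called lower was 3. It was 5 with a pseudocount of 0.1, 5 at 2-fold and 0 where intervals had to lie apart. Under the other alternatives it stayed within 1.5 times of 3, though not always for the same genes. At a mean FPKM of at least 5 it was 2, without Tgfbi, whose mean of 2.93 lay below that level. With chromosome medians subtracted it was 3, but Postn (-1.79) was called in place of Tnc (-1.44). Over all genes, 377 were called lower and 229 higher. These counts were 795 and 621 with a pseudocount of 0.1, 662 and 76 with equal Gapdh FPKM, 221 and 144 at a mean FPKM of at least 5, 828 and 726 at 2-fold, and 119 and 41 with intervals apart. Each follows from the setting by construction.

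Among the members and list medians, those that turned direction with equal Gapdh FPKM, which multiplies each PID+ value by 0.648, were Fn1 (-0.11), Thbs1 (-0.46), Thbs3 (-0.21) and the median of the receptors (-0.20). Thbs3 also turned with equal total FPKM (-0.031) and with chromosome medians subtracted (-0.25), as did the median of the TGF-β list with the latter (0.091). These turns follow from the factor or the median applied. Of the other genes named with an FPKM above 1, Ccn2, Itgav, Itga6, Itgb6, Sdc4, Parva, Krt19 and Cd14 turned with equal Gapdh FPKM too, Ccn2, Parva and Cd14 also with equal total FPKM, and Parva with chromosome medians subtracted.

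Of the other matricellular genes, 1 was called higher, and 0 were with equal total FPKM, equal Gapdh FPKM, chromosome medians subtracted or intervals apart. 6 were called lower, and 2 at a mean FPKM of at least 5. Receptors called lower were 1, and 3 with equal Gapdh FPKM or at 2-fold, and 1 was higher at 2-fold. Of the crosslinking and adaptor genes, 1 was higher with a pseudocount of 0.1 or at 2-fold, and 1 lower with intervals apart. Of the TGF-β list, 2 were called lower, 4 with equal Gapdh FPKM or at 2-fold, and 2 were higher at 2-fold. Over all 21959 genes, calls changed too, to 662 lower with equal Gapdh FPKM and to 828 lower and 726 higher at 2-fold. There were 221 lower at a mean FPKM of at least 5, 119 lower with intervals apart and 621 higher with a pseudocount of 0.1.

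No paired analysis was possible because each group has 1 pooled value. For the same reason leaving out each replicate was not run. The depth per sample is unknown, and values under about 3 reads, such as those of Vtn, carry no fold.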
